A study of Homo sapiens with 6 samples.

Results

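The proteasome genes described here are the 49 genes of MM.1S myeloma cells whose symbol is PSMA, PSMB, PSMC, PSMD, PSME, PSMF or PSMG followed by a number, together with POMP and ADRM1, out of 33095 genes listed in both of the authors' deposited tables. They were taken by symbol alone, with no measured value in the rule. By role they are 8 alpha and 7 beta subunits of the 20S core, 3 immunoproteasome beta subunits, 6 ATPase and 12 non-ATPase subunits of the 19S regulator, 5 activators or inhibitors and 8 assembly factors. All but 1 have an adjusted p-value in both comparisons. The exception is PSMA8, an alpha subunit of testis, with a mean of 0.684 normalised counts in the authors' deposited table. It is left out of every count below except those of promoter sequence, which leaves 48 genes.

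The established human line MM.1S comes from multiple myeloma, the cancer in which plasma cells, the makers of antibody, expand. Its cells were infected with lentivirus carrying anti-IRF3 shRNA 1, anti-IRF3 shRNA 2 or a scramble control hairpin, and grown in RPMI 1640 with 10% FBS. IRF3 is a transcription factor that turns on type I interferon after the sensing of foreign nucleic acid. Each of the 3 arms had 2 libraries of poly(A)-enriched mRNA, and the tables used here give the mean over all 6 libraries, log2 fold changes of each hairpin over scramble, their standard errors (SE) and adjusted p-values. All arms share the transduction and the parent line, so the results concern 1 cell line. Nothing in the labels ties the libraries of an arm to separate cultures, so p-values cover the spread between libraries alone, and that spread may be technical. Both comparisons share the scramble libraries.

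The proteasome is the protease that degrades most ubiquitin-tagged proteins. Its 20S core is a barrel of stacked alpha and beta rings with the active sites inside, and the 19S regulator binds ubiquitin chains, removes them and unfolds the substrate with a ring of ATPases. Interferon exchanges the active subunits for the immunoproteasome set, which cuts peptides for MHC class I. Plasma cells make large amounts of antibody and depend on this protease, and proteasome inhibitors are standard drugs in myeloma. When the protease is inhibited, the transcription factor NFE2L1 raises most subunit genes together.

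Promoter sequence is shown first for the genes that hold the repeat bound by interferon regulatory factors, the family of IRF3. The RefSeq promoter table (GRCh38.p14) covers 250 bases before to 50 bases after a transcription start and matched 43 of the 49 genes, with no entry for PSMA7, PSMB1, PSMB6, PSMB7, PSMD4 and PSMG3. The core of the interferon-stimulated response element, searched as GAAANNGAA on both strands, occurred in 9 of the 43 (20.9%), against 9.86% of 27305 genes in the table and 8.80% of 5240 genes with a mean in the range of the proteasome genes. In the 250 bases before the start alone it occurred in 6 of the 43 (14.0%), against 8.41% and 7.46%. Each of the 9 matches is given below in capitals with up to 10 bases on either side, read 5′ to 3′ on the strand that holds it.
PSMB8 (chr6:32844032-32844060, plus strand, opposite to the gene): aggaggaagtGAAAGCGAAagccacagat
PSMB10 (chr16:67936853-67936881, minus strand, that of the gene): gggtaaaggcGAAAGCGAAagcaggaagt
PSME1 (chr14:24136190-24136218, minus strand, opposite to the gene): accgcgaaggGAAAGCGAAagcggtaggg
PSME2 (chr14:24146620-24146648, minus strand, that of the gene): cctggggagtGAAAGCGAAagcccgggcg
PSMG4 (chr6:3258904-3258932, plus strand, that of the gene): ttccggggccGAAAGCGAAagcgcgctcg
POMP (chr13:28659105-28659133, plus strand, that of the gene): ccagccctcgGAAACGGAAgtgagcggcg
PSMC2 (chr7:103347626-103347654, plus strand, that of the gene): gtggggaaggGAAAGGGAAgacaccaccg
PSMB4 (chr1:151399495-151399523, plus strand, that of the gene): tcgtctacagGAAAAAGAAagaaatgaca
PSMA4 (chr15:78540155-78540183, plus strand, that of the gene): atagtgaagaGAAAATGAAaggagagcgc
PSMB8, PSMB10, PSME1, PSME2 and PSMG4 hold the same 9 letters with the same 3 bases after them. These 5 include 2 of the 3 immunoproteasome subunits and both subunits of the interferon-induced activator. A match is a description of letters and not a site of binding.

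IRF3 mRNA had reconstructed means of 974 normalised counts with shRNA 1, 2476 with shRNA 2 and 2809 with scramble. A reconstructed mean is the mean of an arm solved from the deposited mean over all libraries and both fold changes, since values of single libraries are not used here, and it carries no SD of its own. On the log2 scale IRF3 fell by 1.53 ± 0.10 (SE) in the shRNA 1 arm, according to the authors' deposited table (DESeq2 adjusted p = 8.45e-46). In the shRNA 2 arm the authors' deposited table has -0.18 ± 0.10 (SE) for it (DESeq2 adjusted p = 0.181). The libraries labelled shRNA 2 thus showed no detectable fall of the targeted mRNA, and directions given for them below rest on that label. Plasma cell markers were abundant in every arm, with summed reconstructed means of 86691, 71373 and 115334 normalised counts over 9 genes in the shRNA 1, shRNA 2 and scramble arms. Markers of B cells, monocytes, epithelium and fibroblasts summed to between 12.7 and 41.3 in any arm, and CD3E of T cells was at 84.4, 53.7 and 33.2.

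Of the proteasome genes more passed as higher than as lower with shRNA 1, and most passed as lower with shRNA 2. With shRNA 1, 14 of 48 were higher and 5 lower, against 9.8% higher and 14.8% lower among all 14488 genes with an adjusted p, counted at a DESeq2 adjusted p below 0.05 in the authors' deposited table. With shRNA 2, 1 of 48 was higher and 28 were lower, against 10.9% and 18.1% of 17054 genes, from the authors' deposited table. Because abundant genes pass a test more easily, the same shares were taken over the 6483 genes with a mean in the range of the proteasome genes, 655 to 10669 normalised counts. There, 13.4% were higher and 22.6% lower with shRNA 1, and 15.2% were higher and 28.6% lower with shRNA 2, in the authors' deposited tables. The median log2 fold change of the 48 was 0.15 with shRNA 1, with a range of -0.71 to 1.21, while genes in the same range of means had a median of -0.04. With shRNA 2 the median was -0.31, with a range of -1.12 to 0.50, beside -0.07 for genes in the same range. These medians, taken from the authors' deposited tables, stand for the list and were not tested. Fitted changes were positive for 31 genes and negative for 17 with shRNA 1, and positive for 8 and negative for 40 with shRNA 2. Shares of these signs over other genes are not given, so the counts of signs are descriptions. Summed over the 48 genes, reconstructed means came to 137602 normalised counts with shRNA 1, 103039 with shRNA 2 and 125837 with scramble, ratios of 1.09 and 0.819 to scramble. Per kilobase of transcript, scramble levels of the 48 ran from 191 for PSMC1 to 8693 for PSMB4, with a median of 1374 normalised counts per kilobase. In bulk RNA, fewer cells of a kind and less RNA per cell cannot be told apart.

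**Figure D1:**
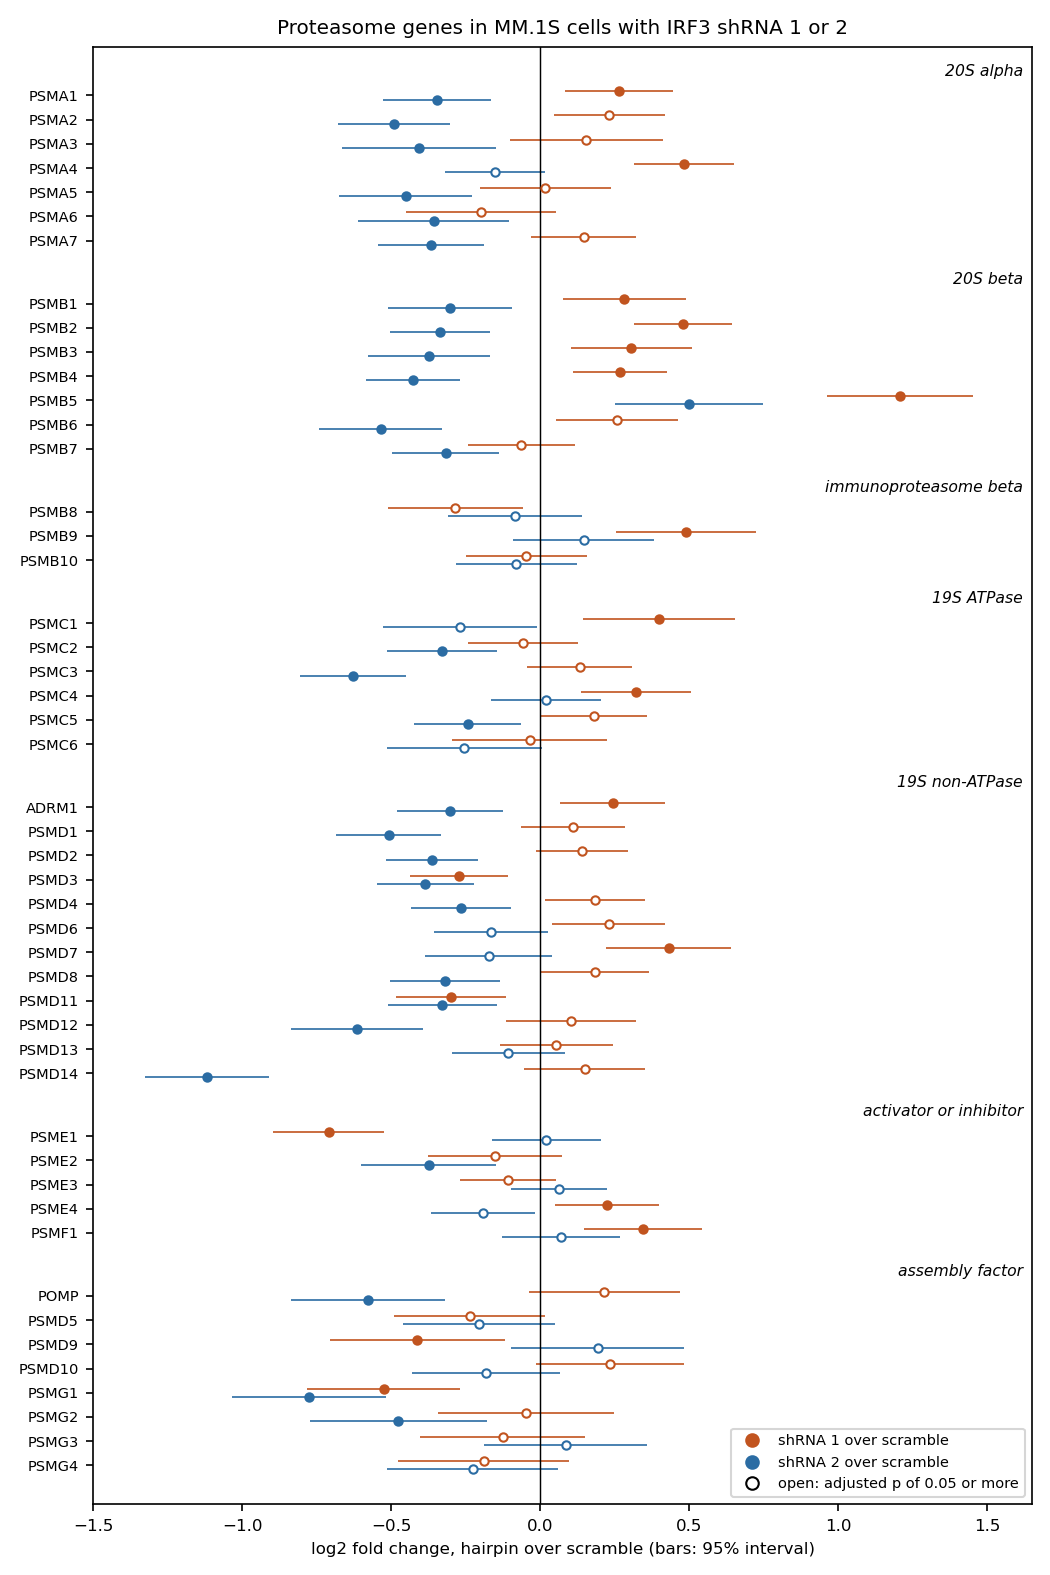
Log2 fold change of each of the 48 proteasome genes, hairpin over scramble, from the authors' deposited tables, grouped by role, with 95% intervals as bars. Orange points are shRNA 1 and blue points shRNA 2, and open points have an adjusted p of 0.05 or more. Most blue points lie left of 0 and most orange points of the 20S and 19S classes lie right of it, while PSMB5 is right of 0 with both hairpins and PSMD14 is farthest left.

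By call, 6 genes were higher with shRNA 1 and lower with shRNA 2, namely PSMA1, PSMB1, PSMB2, PSMB3, PSMB4 and ADRM1, in the authors' deposited tables. For PSMB1 and ADRM1 the call with shRNA 1 is lost without the filter on low genes. Another 7 were higher with shRNA 1 and did not pass with shRNA 2, and 19 were lower with shRNA 2 and did not pass with shRNA 1. PSMD3, PSMD11 and PSMG1 were lower with both, and PSMB5 was higher with both. PSME1 and PSMD9 were lower with shRNA 1 alone by call. The remaining 10 passed in neither comparison. Shares of such joint calls over all genes are not given, so these counts are descriptions and show nothing particular to the proteasome genes. Since passing with 1 hairpin and not with the other does not show a difference, the 2 log2 fold changes were set against each other by a two-sided z test.

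In this test, 26 of 48 proteasome genes were lower and 2 higher with shRNA 2 than with shRNA 1, computed from the authors' deposited values. The shares over all 17668 genes tested were 10.9% lower and 7.92% higher, and over the genes in the same range of means 19.3% lower and 15% higher. Of the 28 genes that differed, 27 had fitted changes of opposite sign and 1, PSMB5, had the same sign. Genes picked for a large gap tend to have opposite signs, and the share over all genes that differ is not given. Only 6 of the 27 passed with both hairpins, and the sign of the others is uncertain with at least 1 hairpin. The median difference, shRNA 2 minus shRNA 1, was -0.43 on the log2 scale over the proteasome genes and -0.02 over genes in the same range of means. The difference was negative for 42 of 48 genes. The share of negative differences over other genes is not given, so this count is a description. The SE of the difference takes the 2 comparisons as independent and is too large, because they share the scramble libraries.

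**Figure D2:**
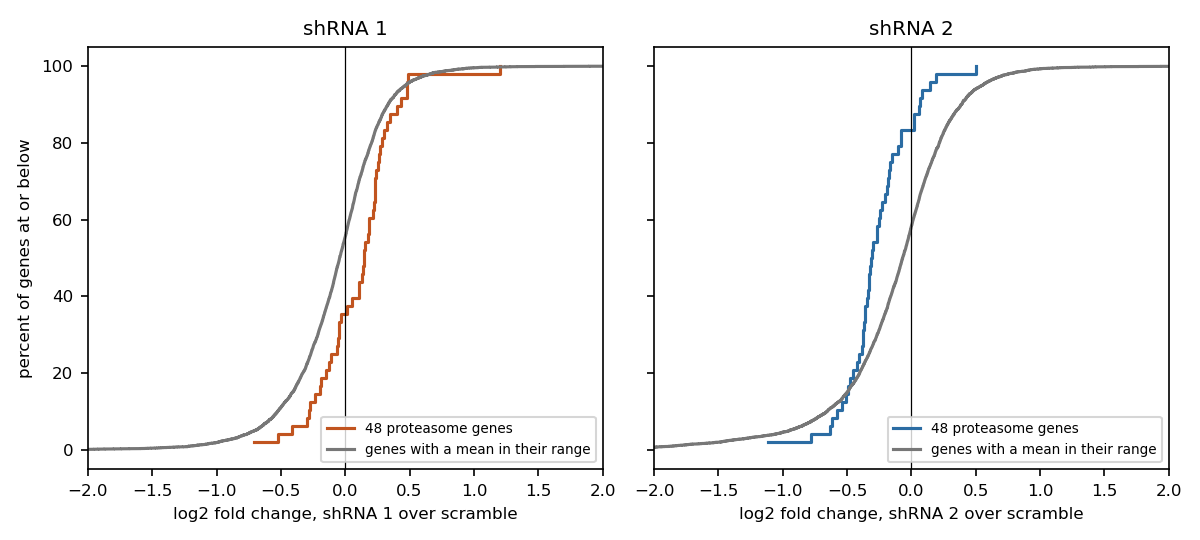
Cumulative share of genes (vertical axis, percent) at or below each log2 fold change over scramble (horizontal axis), for the 48 proteasome genes in colour and for genes with a mean in their range in grey, with shRNA 1 on the left and shRNA 2 on the right. The proteasome curve crosses 50% at 0.15 with shRNA 1 and at -0.31 with shRNA 2, on opposite sides of the grey curves at -0.04 and -0.07.

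Of the 7 alpha subunits, which form the outer rings and the gate of the 20S core, 2 rose with shRNA 1 and 6 fell with shRNA 2. Their median log2 fold change was 0.15 with shRNA 1 and -0.37 with shRNA 2. Of genes in the same range of means, 13.4% were higher with shRNA 1 and 28.6% lower with shRNA 2. PSMA4, whose tail helps to close the gate, had reconstructed means of 5009, 3228 and 3586 normalised counts in the shRNA 1, shRNA 2 and scramble arms. PSMA4 rose by 0.48 ± 0.09 log2 units (SE) with shRNA 1 (adjusted p = 3.77e-07) and was at -0.15 ± 0.09 (SE) with shRNA 2 (adjusted p = 0.194) in the authors' deposited tables. PSMA1 had 4209, 2759 and 3508 normalised counts in the same 3 arms. In log2 terms PSMA1 rose by 0.26 ± 0.09 (SE) with shRNA 1 (adjusted p = 0.0221) and fell by 0.35 ± 0.09 (SE) with shRNA 2 (adjusted p = 0.00120) in the authors' deposited tables. The shRNA 1 and shRNA 2 levels of PSMA1 lay on either side of scramble, whereas PSMA4 was near scramble with shRNA 2. PSMA2 had 3263, 1976 and 2779 normalised counts in the shRNA 1, shRNA 2 and scramble arms. PSMA2 was at 0.23 ± 0.10 log2 units (SE) with shRNA 1 (adjusted p = 0.0587) and fell by 0.49 ± 0.10 (SE) with shRNA 2 (adjusted p = 3.41e-06) in the authors' deposited tables. PSMA7 had 5099, 3571 and 4607 in these arms. In log2 terms PSMA7 was at 0.15 ± 0.09 (SE) with shRNA 1 (adjusted p = 0.256) and fell by 0.37 ± 0.09 (SE) with shRNA 2 (adjusted p = 0.000330) in the authors' deposited tables. Both were lowest with shRNA 2. PSMA3 had 1163, 788 and 1045 normalised counts, and PSMA5 1340.2, 969 and 1324, in the shRNA 1, shRNA 2 and scramble arms. PSMA3 was at 0.15 ± 0.13 log2 units (SE) with shRNA 1 (adjusted p = 0.453) and fell by 0.41 ± 0.13 (SE) with shRNA 2 (adjusted p = 0.00984) in the authors' deposited tables. In log2 terms PSMA5 was at 0.02 ± 0.11 (SE) with shRNA 1 (adjusted p = 0.946) and fell by 0.45 ± 0.11 (SE) with shRNA 2 (adjusted p = 0.000505) in the authors' deposited tables. PSMA6 (means 1405, 1258 and 1613) was below scramble in both hairpin arms. PSMA6 was at -0.20 ± 0.13 log2 units (SE) with shRNA 1 (adjusted p = 0.288) and fell by 0.36 ± 0.13 (SE) with shRNA 2 (adjusted p = 0.0218) in the authors' deposited tables. PSMA6 was the 1 alpha subunit for which the hairpins did not differ in the z test, with a difference of -0.16 ± 0.18 (SE) and an adjusted p of 0.700.

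The 7 constitutive beta subunits form the inner rings, and 5 of them rose with shRNA 1 while 6 fell and 1 rose with shRNA 2. Their median log2 fold change was 0.28 with shRNA 1 and -0.34 with shRNA 2. Of genes in the same range of means, 13.4% were higher with shRNA 1, and 28.6% were lower and 15.2% higher with shRNA 2. PSMB5 carries the chymotrypsin-like site, the main target of the inhibitor bortezomib, and lies on chromosome 14 from 23016543 to 23035230 on the minus strand (GRCh38). It had 1526, 935 and 662 normalised counts in the shRNA 1, shRNA 2 and scramble arms, so that scramble was lowest. In log2 terms PSMB5 rose by 1.21 ± 0.13 (SE) with shRNA 1 (adjusted p = 6.38e-20) and rose by 0.50 ± 0.13 (SE) with shRNA 2 (adjusted p = 0.000549) in the authors' deposited tables. The ratios to scramble were 2.31 with a 95% interval of 1.95 to 2.73 for shRNA 1 and 1.41 with an interval of 1.19 to 1.68 for shRNA 2. No other of the 48 proteasome genes passed as higher with shRNA 2. The 250 bases before the more upstream of its 2 listed starts (chr14:23035221-23035470, minus strand, GRCh38.p14) are shown because the gene departs from the rest of its ring, with CCAAT, the letters bound by NF-Y, in capitals.
PSMB5: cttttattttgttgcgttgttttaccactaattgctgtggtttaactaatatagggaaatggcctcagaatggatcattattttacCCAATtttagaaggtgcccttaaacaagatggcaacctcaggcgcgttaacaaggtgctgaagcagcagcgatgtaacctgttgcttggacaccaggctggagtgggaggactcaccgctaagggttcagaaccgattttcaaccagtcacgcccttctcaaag

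PSMB6 carries the caspase-like site and had 2822, 1628 and 2360.2 normalised counts in the shRNA 1, shRNA 2 and scramble arms. PSMB6 was at 0.26 ± 0.10 log2 units (SE) with shRNA 1 (adjusted p = 0.0528) and fell by 0.54 ± 0.11 (SE) with shRNA 2 (adjusted p = 3.91e-06) in the authors' deposited tables. PSMB7 carries the trypsin-like site and had 2453, 2058 and 2565. In log2 terms PSMB7 was at -0.06 ± 0.09 (SE) with shRNA 1 (adjusted p = 0.695) and fell by 0.32 ± 0.09 (SE) with shRNA 2 (adjusted p = 0.00307) in the authors' deposited tables. Of the 3 catalytic subunits PSMB5 passed as higher with shRNA 1 and PSMB6 was just outside the threshold. PSMB6 passes with shRNA 1 after recentring on the median gene (adjusted p of 0.0202) and among genes with a mean of at least 50 (0.0482), and differences between the 3 genes were not tested. The other 4 beta subunits have no active site and had the same pattern, higher with shRNA 1 and lower with shRNA 2. PSMB4 had the highest scramble level of the 48 genes per kilobase of transcript, and had 10082, 6234 and 8380.3 normalised counts in the shRNA 1, shRNA 2 and scramble arms. PSMB4 rose by 0.27 ± 0.08 log2 units (SE) with shRNA 1 (adjusted p = 0.00577) and fell by 0.43 ± 0.08 (SE) with shRNA 2 (adjusted p = 1.39e-06) in the authors' deposited tables. PSMB2 had 4305, 2449 and 3090.0. In log2 terms PSMB2 rose by 0.48 ± 0.08 (SE) with shRNA 1 (adjusted p = 2.98e-07) and fell by 0.34 ± 0.09 (SE) with shRNA 2 (adjusted p = 0.000566) in the authors' deposited tables. The arms of PSMB2 were far apart for its SE, with the largest gap between hairpins in the ring. PSMB3 had 2725, 1703 and 2206, and PSMB1 1889, 1259 and 1553, in the same order of arms. PSMB3 rose by 0.30 ± 0.10 log2 units (SE) with shRNA 1 (adjusted p = 0.0168) and fell by 0.37 ± 0.10 (SE) with shRNA 2 (adjusted p = 0.00196) in the authors' deposited tables. In log2 terms PSMB1 rose by 0.28 ± 0.10 (SE) with shRNA 1 (adjusted p = 0.0321) and fell by 0.30 ± 0.11 (SE) with shRNA 2 (adjusted p = 0.0179) in the authors' deposited tables. The call of PSMB1 with shRNA 1 is lost without the filter on low genes, at an adjusted p of 0.0725. Over the 14 constitutive 20S genes, summed reconstructed means were 47292 normalised counts with shRNA 1, 30816 with shRNA 2 and 39278 with scramble, ratios of 1.20 and 0.785.

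The immunoproteasome subunits replace the catalytic beta subunits under interferon, and none of the 3 passed with shRNA 2, where 0 had an unadjusted p below 0.05 (DESeq2). Among genes in the same range of means 15.2% were higher and 28.6% lower with shRNA 2, so 3 genes without a call show nothing particular. PSMB9, the counterpart of PSMB6, had 1528, 1205 and 1089 normalised counts in the shRNA 1, shRNA 2 and scramble arms. PSMB9 rose by 0.49 ± 0.12 log2 units (SE) with shRNA 1 (adjusted p = 0.000471) and was at 0.15 ± 0.12 (SE) with shRNA 2 (adjusted p = 0.422) in the authors' deposited tables. PSMB8, the counterpart of PSMB5, had 1251, 1437 and 1523. In log2 terms PSMB8 was at -0.28 ± 0.12 (SE) with shRNA 1 (adjusted p = 0.0533) and at -0.08 ± 0.11 (SE) with shRNA 2 (adjusted p = 0.671) in the authors' deposited tables. PSMB8 was thus just outside the threshold with shRNA 1, inside it among genes with a mean of at least 50 (adjusted p of 0.0486), and its sign was opposite to that of PSMB9. PSMB10, the counterpart of PSMB7, had 2513, 2454 and 2595, nearly level over the arms. PSMB10 was at -0.05 ± 0.10 log2 units (SE) with shRNA 1 (adjusted p = 0.818) and at -0.08 ± 0.10 (SE) with shRNA 2 (adjusted p = 0.647) in the authors' deposited tables. The hairpins did not differ detectably for these genes, with differences of 0.20 ± 0.16, -0.34 ± 0.17 and -0.03 ± 0.15 (SE) and z test adjusted p-values of 0.504, 0.170 and 0.960. PSMB9 passes, at 0.0164, when the variance of the shared scramble libraries is taken out of the SE. PSMB8 (chromosome 6, 32840717 to 32844703, minus strand) and PSMB9 (32844136 to 32859585, plus strand) share 139 exon bases in GENCODE 29, and PSMB8-AS1 overlaps both. Whether the counting used strand is not stated, so the division of reads between them is uncertain.

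Set against its constitutive counterpart, the change of PSMB8 was below that of PSMB5 with both hairpins, with log2 differences of -1.49 and -0.58 for shRNA 1 and shRNA 2. PSMB9 minus PSMB6 gave 0.23 and 0.68, and PSMB10 minus PSMB7 gave 0.02 and 0.24, in the order shRNA 1 and shRNA 2. Against the median of the constitutive 20S genes in place of the counterpart, PSMB8 is at -0.55 with shRNA 1 but turns to 0.28 with shRNA 2, and PSMB10 turns to -0.31 with shRNA 1, so these directions depend on the gene set beside them. The SE of such contrasts cannot be given without values of single libraries, so they are descriptions. Per kilobase of the transcript, PSMB8 made up 48.5% of the sum of PSMB8 and PSMB5 with shRNA 1, 63.9% with shRNA 2 and 72.6% with scramble. With the longest annotated transcript as the length, these shares were 30.9%, 45.6% and 55.7%, so the level of the share depends on the transcript used while its order over the arms was the same. PSMB9 made up 37.1%, 44.6% and 33.5% of the sum with PSMB6 in the shRNA 1, shRNA 2 and scramble arms, and PSMB10 45.2%, 49.0% and 44.9% of the sum with PSMB7. With the longest annotated transcript the shares of PSMB9 were 15.0%, 19.4% and 13.1%, in the same order over the arms. Over the arms PSMB5 varied more than PSMB8, from 662 to 1526 against 1251 to 1523 normalised counts.

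**Figure D3:**
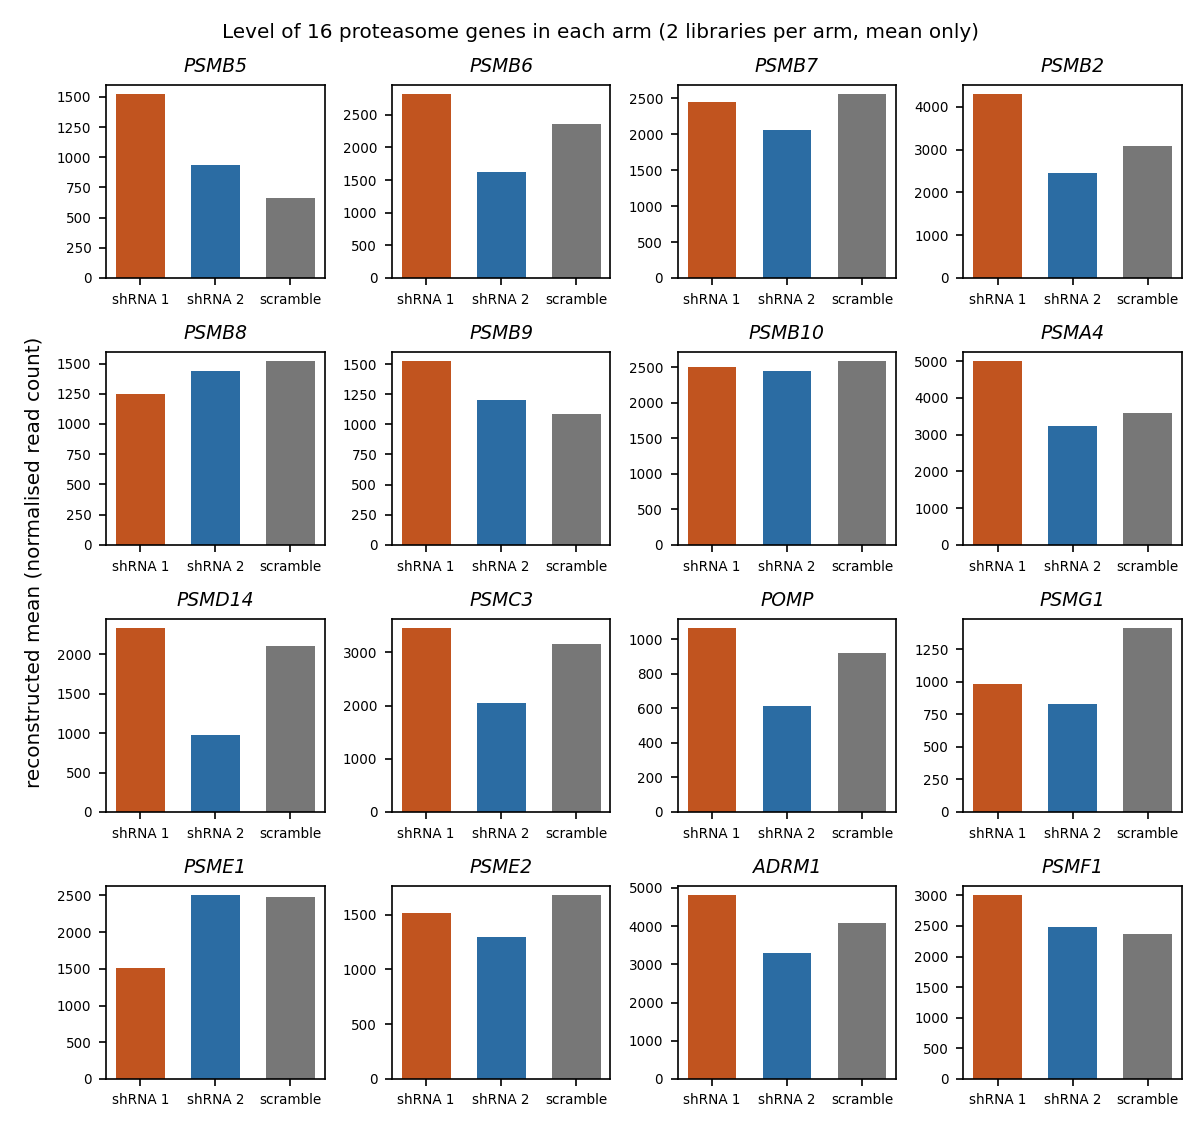
Reconstructed mean normalised counts (vertical axes from 0, a scale for each gene) of 16 proteasome genes as bars for the shRNA 1, shRNA 2 and scramble arms. Each bar is the mean of an arm of 2 libraries, solved from the authors' deposited tables, so there are no error bars. PSMB5 is lowest in scramble at 662, PSMD14 and POMP are lowest with shRNA 2 at 971 and 615, and PSME1 is lowest with shRNA 1 at 1513.

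The 19S ATPases, a ring of 6 that unfolds substrates and feeds them into the core, had 2 higher genes with shRNA 1 and 3 lower genes with shRNA 2. Their median log2 fold change was 0.16 with shRNA 1 and -0.26 with shRNA 2. Of genes in the same range of means, 13.4% were higher with shRNA 1 and 28.6% lower with shRNA 2, and counts in a class of 6 are small. PSMC3 had 3465, 2043 and 3161 normalised counts in the shRNA 1, shRNA 2 and scramble arms. In log2 terms PSMC3 was at 0.13 ± 0.09 (SE) with shRNA 1 (adjusted p = 0.318) and fell by 0.63 ± 0.09 (SE) with shRNA 2 (adjusted p = 1.01e-10) in the authors' deposited tables. PSMC1 had 1119, 704 and 849. PSMC1 rose by 0.40 ± 0.13 log2 units (SE) with shRNA 1 (adjusted p = 0.0121) and was at -0.27 ± 0.13 (SE) with shRNA 2 (adjusted p = 0.114) in the authors' deposited tables. Of PSMC1, exons overlap those of NRDE2 on the other strand by 4671 bases, and 2 of its pseudogenes in the tables have summed means of 24.0% of its own, so its level is uncertain. Exons of further proteasome genes overlap other genes too. Among them are PSMC5 with FTSJ3 (874 bases), PSMA2 with AC010132.3 (781), PSMB10 with AC040162.1 (644) and ADRM1 with LAMA5 (244), and the same limit holds for their levels. PSMC4 had 2780.4, 2257 and 2225, with the scramble and shRNA 2 arms nearly level. In log2 terms PSMC4 rose by 0.32 ± 0.09 (SE) with shRNA 1 (adjusted p = 0.00427) and was at 0.02 ± 0.09 (SE) with shRNA 2 (adjusted p = 0.919) in the authors' deposited tables. PSMC2 had 2437, 2021 and 2539, and PSMC5 3676, 2743 and 3248, in the same order of arms. PSMC2 was at -0.06 ± 0.09 log2 units (SE) with shRNA 1 (adjusted p = 0.732) and fell by 0.33 ± 0.09 (SE) with shRNA 2 (adjusted p = 0.00275) in the authors' deposited tables. In log2 terms PSMC5 was at 0.18 ± 0.09 (SE) with shRNA 1 (adjusted p = 0.149) and fell by 0.24 ± 0.09 (SE) with shRNA 2 (adjusted p = 0.0296) in the authors' deposited tables. The call of PSMC5 with shRNA 2 is lost without the filter on low genes (adjusted p of 0.0570) and after recentring on the median gene (0.0817). PSMC6 passed in neither comparison, at -0.04 and -0.25 in the authors' deposited tables.

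Among 12 non-ATPase subunits of the 19S regulator, 2 rose and 2 fell with shRNA 1, while 9 fell and 0 rose with shRNA 2. Of genes in the same range of means, 13.4% were higher and 22.6% lower with shRNA 1, and 15.2% and 28.6% with shRNA 2. The counts with shRNA 1 and the lack of higher genes with shRNA 2 therefore show nothing particular to this class. At an unadjusted p below 0.05 the DESeq2 count of higher genes with shRNA 2 was 0 as well, with no share over all genes given. All 12 fitted changes were negative with shRNA 2, from -1.12 to -0.11, and 10 were positive with shRNA 1, in the authors' deposited tables. Shares of signs over other genes are not given. PSMD14 is the deubiquitinase that cuts the ubiquitin chain from the substrate, and lies on chromosome 2 from 161308038 to 161411717 on the plus strand. It had 2338, 971 and 2109 normalised counts in the shRNA 1, shRNA 2 and scramble arms. PSMD14 was at 0.15 ± 0.10 log2 units (SE) with shRNA 1 (adjusted p = 0.330) and fell by 1.12 ± 0.11 (SE) with shRNA 2 (adjusted p = 3.78e-24) in the authors' deposited tables. The ratio of shRNA 2 to scramble was 0.461, with a 95% interval of 0.399 to 0.532, the lowest among the 48 genes. The 2 hairpins differed by -1.27 ± 0.15 (SE), with a z test adjusted p of 1.19e-15, at a level near scramble with shRNA 1. Its 250 bases before the RefSeq start (chr2:161308175-161308424, plus strand, GRCh38.p14) are shown for that reason, with CCAAT in capitals where it occurs on both strands in 8 overlapping letters. This start lies within the gene span given above. CCGGAAGT, the letters bound by ETS factors, begins 4 bases before this start and runs past it, so it is not marked. The part of these letters in the change was not tested.
PSMD14: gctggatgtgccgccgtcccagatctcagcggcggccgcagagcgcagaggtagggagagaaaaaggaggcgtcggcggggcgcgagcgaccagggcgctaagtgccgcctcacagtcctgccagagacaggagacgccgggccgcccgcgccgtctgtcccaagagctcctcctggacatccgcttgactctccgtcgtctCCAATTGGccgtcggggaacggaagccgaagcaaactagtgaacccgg

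PSMD7, the partner of PSMD14 in the lid, had 1972, 1298 and 1464 normalised counts in the shRNA 1, shRNA 2 and scramble arms. In log2 terms PSMD7 rose by 0.43 ± 0.11 (SE) with shRNA 1 (adjusted p = 0.000544) and was at -0.17 ± 0.11 (SE) with shRNA 2 (adjusted p = 0.249) in the authors' deposited tables. The partners passed in different comparisons, but their fitted changes had the same signs with each hairpin. Both were lower with shRNA 2 than with shRNA 1 in the z test, with differences of -0.60 for PSMD7 and -1.27 for PSMD14. The scaffold subunits PSMD1 and PSMD2, to which shuttle factors dock, had 3946, 2572 and 3659 and 12251, 8639 and 11116 in the same order of arms. PSMD1 was at 0.11 ± 0.09 log2 units (SE) with shRNA 1 (adjusted p = 0.433) and fell by 0.51 ± 0.09 (SE) with shRNA 2 (adjusted p = 2.09e-07) in the authors' deposited tables. In log2 terms PSMD2 was at 0.14 ± 0.08 (SE) with shRNA 1 (adjusted p = 0.199) and fell by 0.36 ± 0.08 (SE) with shRNA 2 (adjusted p = 3.24e-05) in the authors' deposited tables. Both were below scramble with shRNA 2 and passed with that hairpin alone. ADRM1 is a ubiquitin receptor that holds the deubiquitinase UCHL5, and had 4821, 3306 and 4076. ADRM1 rose by 0.24 ± 0.09 log2 units (SE) with shRNA 1 (adjusted p = 0.0324) and fell by 0.30 ± 0.09 (SE) with shRNA 2 (adjusted p = 0.00447) in the authors' deposited tables. PSMD4, also a ubiquitin receptor, had 6025, 4414 and 5304. In log2 terms PSMD4 was at 0.18 ± 0.09 (SE) with shRNA 1 (adjusted p = 0.104) and fell by 0.27 ± 0.09 (SE) with shRNA 2 (adjusted p = 0.00930) in the authors' deposited tables. The call of ADRM1 with shRNA 1 is lost without the filter on low genes, at an adjusted p of 0.0733.

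Among the scaffold subunits of the lid, PSMD12 had 1657, 1006 and 1542 normalised counts in the shRNA 1, shRNA 2 and scramble arms. PSMD12 was at 0.10 ± 0.11 log2 units (SE) with shRNA 1 (adjusted p = 0.578) and fell by 0.62 ± 0.11 (SE) with shRNA 2 (adjusted p = 6.12e-07) in the authors' deposited tables. PSMD8 had 3138, 2216 and 2765. In log2 terms PSMD8 was at 0.18 ± 0.09 (SE) with shRNA 1 (adjusted p = 0.151) and fell by 0.32 ± 0.09 (SE) with shRNA 2 (adjusted p = 0.00364) in the authors' deposited tables. Both were below scramble with shRNA 2 alone. PSMD3 and PSMD11 instead lay below scramble in both hairpin arms. They had 4479, 4146 and 5416 and 2622, 2570.4 and 3227 normalised counts. PSMD3 fell by 0.27 ± 0.08 log2 units (SE) with shRNA 1 (adjusted p = 0.00662) and fell by 0.39 ± 0.08 (SE) with shRNA 2 (adjusted p = 3.52e-05) in the authors' deposited tables. In log2 terms PSMD11 fell by 0.30 ± 0.09 (SE) with shRNA 1 (adjusted p = 0.00890) and fell by 0.33 ± 0.09 (SE) with shRNA 2 (adjusted p = 0.00260) in the authors' deposited tables. For these genes the hairpins did not differ in the z test, with adjusted p-values of 0.665 and 0.963 and 95% intervals of the log2 difference of -0.34 to 0.12 and -0.29 to 0.23. PSMD6 and PSMD13 passed in neither comparison, at 0.23 and 0.05 with shRNA 1 and -0.16 and -0.11 with shRNA 2 in the authors' deposited tables. Over all 18 genes of the 19S regulator, summed reconstructed means were 1.08 times scramble with shRNA 1 and 0.789 times with shRNA 2.

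**Figure D4:**
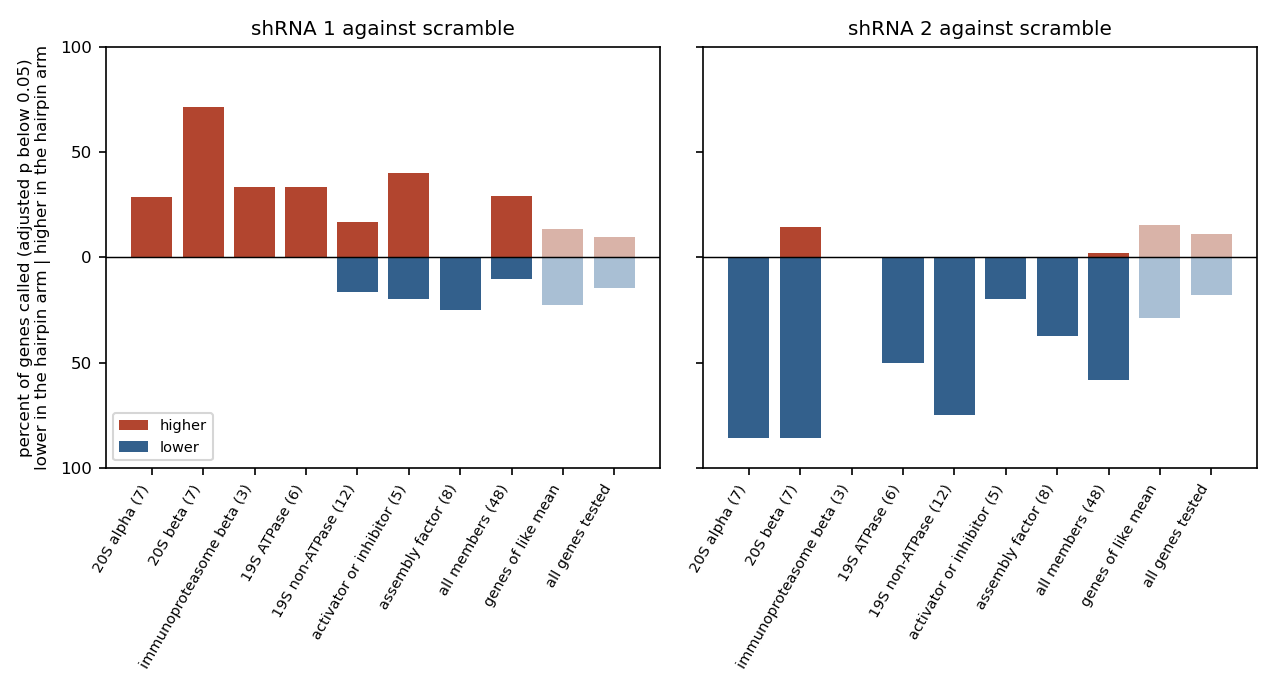
Share of each role class (percent) that passed an adjusted p of 0.05 as higher (upward bars) or lower (downward bars) with shRNA 1 and with shRNA 2, beside the same shares over genes of like mean and over all genes tested. With shRNA 2, lower calls cover 6 of 7 alpha, 6 of 7 beta, 3 of 6 ATPase and 9 of 12 non-ATPase subunits. They cover 3 of 8 assembly factors, 1 of 5 activators or inhibitors and none of the 3 immunoproteasome subunits. Among genes of like mean 28.6% were lower, so a class of 3 without such a call shows nothing particular.

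The activators cap the core in place of the 19S regulator. PSME1 and PSME2 form the interferon-induced activator of peptide hydrolysis, and lie 4395 bases apart on chromosome 14. PSME1 (24136158 to 24138967, plus strand) had 1513, 2509 and 2474 normalised counts in the shRNA 1, shRNA 2 and scramble arms, low with shRNA 1 alone. PSME1 fell by 0.71 ± 0.09 log2 units (SE) with shRNA 1 (adjusted p = 3.71e-12) and was at 0.02 ± 0.09 (SE) with shRNA 2 (adjusted p = 0.918) in the authors' deposited tables. Its ratio to scramble with shRNA 1 was 0.612. PSME2 had 1514, 1297 and 1681, lowest with shRNA 2. In log2 terms PSME2 was at -0.15 ± 0.11 (SE) with shRNA 1 (adjusted p = 0.385) and fell by 0.37 ± 0.12 (SE) with shRNA 2 (adjusted p = 0.00569) in the authors' deposited tables. The partners, both with the letters GAAAGCGAA near their start, thus passed with different hairpins. The difference between hairpins was 0.73 ± 0.13 (SE) for PSME1, with a z test adjusted p of 1.09e-06, and -0.22 ± 0.16 for PSME2, with 0.431. PSME4, the nuclear activator PA200, had 4476, 3351 and 3831 and was just inside the threshold with shRNA 1. PSME4 rose by 0.22 ± 0.09 log2 units (SE) with shRNA 1 (adjusted p = 0.0466) and was at -0.19 ± 0.09 (SE) with shRNA 2 (adjusted p = 0.0906) in the authors' deposited tables. Without the filter on low genes that call is lost, at an adjusted p of 0.105. PSMF1, an inhibitor of the core in vitro, had 3011, 2483 and 2369. In log2 terms PSMF1 rose by 0.35 ± 0.10 (SE) with shRNA 1 (adjusted p = 0.00418) and was at 0.07 ± 0.10 (SE) with shRNA 2 (adjusted p = 0.703) in the authors' deposited tables. PSME3, the nuclear activator of the same family as PSME1, passed in neither comparison, at -0.11 and 0.06 in the authors' deposited tables.

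The assembly factors guide the building of the particle and leave it or are degraded at the end, and of the 8 tested 0 were higher and 2 lower with shRNA 1 and 0 higher and 3 lower with shRNA 2. Among genes in the same range of means 22.6% were lower with shRNA 1 and 28.6% with shRNA 2, so these small counts show nothing particular to the assembly factors. At an unadjusted p below 0.05 the DESeq2 counts of higher assembly factors were 0 with both hairpins. POMP, which helps the 20S core to mature and is then degraded inside it, lies on chromosome 13 from 28659104 to 28678925. It had 1065, 615 and 918 normalised counts in the shRNA 1, shRNA 2 and scramble arms. POMP was at 0.22 ± 0.13 log2 units (SE) with shRNA 1 (adjusted p = 0.239) and fell by 0.58 ± 0.13 (SE) with shRNA 2 (adjusted p = 8.32e-05) in the authors' deposited tables. PSMG1 and PSMG2 work as a pair in building the alpha ring. PSMG1 had 982, 825 and 1414, below scramble in both hairpin arms. In log2 terms PSMG1 fell by 0.53 ± 0.13 (SE) with shRNA 1 (adjusted p = 0.000562) and fell by 0.78 ± 0.13 (SE) with shRNA 2 (adjusted p = 5.25e-08) in the authors' deposited tables. PSMG2 had 732, 544 and 756. PSMG2 was at -0.05 ± 0.15 log2 units (SE) with shRNA 1 (adjusted p = 0.877) and fell by 0.48 ± 0.15 (SE) with shRNA 2 (adjusted p = 0.00819) in the authors' deposited tables. The partner pair PSMG3 and PSMG4 passed in neither comparison, at -0.13 and -0.19 with shRNA 1 and 0.09 and -0.23 with shRNA 2 in the authors' deposited tables. Of the chaperones of the ATPase ring, PSMD9 had 510.2, 776 and 679, lowest with shRNA 1. In log2 terms PSMD9 fell by 0.41 ± 0.15 (SE) with shRNA 1 (adjusted p = 0.0270) and was at 0.19 ± 0.15 (SE) with shRNA 2 (adjusted p = 0.376) in the authors' deposited tables. Its call with shRNA 1 is lost without the filter on low genes (adjusted p of 0.0610) and after recentring (0.0523). PSMD5 and PSMD10 passed in neither comparison, at -0.24 and 0.23 with shRNA 1 and -0.21 and -0.18 with shRNA 2 in the authors' deposited tables.

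Around the threshold, ADRM1 (adjusted p of 0.0324) and PSME4 (0.0466) were the nearest inside with shRNA 1, and PSMB6 (0.0528) and PSMB8 (0.0533) the nearest outside, in the authors' deposited table. With shRNA 2, PSMA6 (0.0218) and PSMC5 (0.0296) were nearest inside, and PSME4 (0.0906) and PSMC1 (0.114) nearest outside, in the authors' deposited table. After recentring on the median gene, PSMA2, PSMD4 and PSMD6 also pass as higher with shRNA 1, at adjusted p-values of 0.0208, 0.0369 and 0.0252. The SE of the log2 fold changes of the 48 genes ran from 0.0784 to 0.152, so the smallest change that could pass differed by gene. With shRNA 1, PSME4 passed at 0.22 with an SE of 0.09, while PSMB8 did not at -0.28 with an SE of 0.12. At an unadjusted p below 0.05 (DESeq2), 24 genes passed with shRNA 1 and 31 with shRNA 2. Shares over all genes at that threshold are not given, so these 2 counts show nothing particular to the proteasome genes. The depth of each library is unknown.

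The promoters of the other known regulators of these genes were described in the same way. TGACNNNGC, the core of the antioxidant response element bound by NFE2L1 and NFE2L2, was in 16 of 43 genes (37.2%), against 16.1% of all genes and 20.6% of genes in the same range of means. CCGGAAGT, bound by ETS factors, was in 11 (25.6%), against 4.95% and 12.5%. CCAAT was in 20 (46.5%), against 39.7% and 44.2%, and TTCNNNGAA, the GAS letters of STAT factors, in 8 (18.6%), against 9.38% and 7.75%. PSMA8 is among the 11 with CCGGAAGT and the 8 with TTCNNNGAA. In the 250 bases before the start alone, the antioxidant core was in 32.6%, CCGGAAGT in 16.3%, CCAAT in 44.2% and TTCNNNGAA in 16.3% of the 43. The shares of genes in the same range of means were then 16.9%, 10.4%, 42.6% and 6.93%. Matches to the antioxidant core, in capitals on the strand that holds them, are shown for 4 genes of different classes.
PSMB3 (20S beta, chr17:38752627-38752655, plus strand): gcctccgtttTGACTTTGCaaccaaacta
PSMD12 (19S lid, chr17:67366724-67366752, minus strand): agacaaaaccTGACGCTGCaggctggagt
ADRM1 (19S ubiquitin receptor, chr20:62302749-62302777, plus strand): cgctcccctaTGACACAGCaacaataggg
PSMG1 (assembly, chr21:39183616-39183644, minus strand): gcccagggcaTGACAGCGCgggcgggcgg
Median log2 fold changes of genes with and without the antioxidant core were 0.11 and 0.15 with shRNA 1, and -0.27 and -0.32 with shRNA 2, computed from the authors' deposited tables. For GAAANNGAA, the medians with and without were -0.06 and 0.15 with shRNA 1, and -0.23 and -0.32 with shRNA 2. With the 250 bases before the start alone they were 0.08 and 0.14 with shRNA 1, and -0.30 and -0.31 with shRNA 2. The gap between these groups thus depends on the window. These are descriptions of small groups and were not tested.

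Among 23 known regulators of proteasome genes, the authors' deposited tables have 3 that rose and 5 that fell with shRNA 1 (median log2 fold change -0.05), and 2 that rose and 5 that fell with shRNA 2 (median 0.06). The counts of this and the following lists stand beside 9.8% higher and 14.8% lower of all genes tested with shRNA 1, and 10.9% and 18.1% with shRNA 2. In the range of means of the proteasome genes these shares were 13.4% and 22.6% with shRNA 1, and 15.2% and 28.6% with shRNA 2. The counts of the regulators lie near those shares and show nothing particular to them. NFE2L1, the transcription factor of the recovery response, had log2 fold changes of -0.25 ± 0.09 and -0.08 ± 0.09 (SE) with shRNA 1 and shRNA 2, at adjusted p-values of 0.0176 and 0.584. DDI2, the protease that releases NFE2L1, had log2 fold changes of -0.40 ± 0.11 and 0.01 ± 0.11 (SE) with shRNA 1 and shRNA 2, at adjusted p-values of 0.00194 and 0.985. NGLY1, the glycanase that edits it, had log2 fold changes of -0.62 ± 0.10 and -0.27 ± 0.10 (SE) with shRNA 1 and shRNA 2, at adjusted p-values of 1.61e-08 and 0.0237. NFE2L3, of the same family, had log2 fold changes of 0.45 ± 0.09 and -0.26 ± 0.09 (SE) with shRNA 1 and shRNA 2, at adjusted p-values of 4.16e-06 and 0.0143. NFE2L2, of the oxidative response, had log2 fold changes of 0.21 ± 0.13 and 0.17 ± 0.13 (SE) with shRNA 1 and shRNA 2, at adjusted p-values of 0.232 and 0.341. NFE2L3 thus had the signs of most 20S genes with each hairpin, and NFE2L1 and DDI2 passed as lower with shRNA 1. With that hairpin 7 of the 14 constitutive 20S genes passed as higher, and 12 had positive fitted changes. The regulators named here are a few of the 23, and their part in the changes of the proteasome genes was not tested. FOXO3 had log2 fold changes of -0.54 ± 0.07 and -0.34 ± 0.07 (SE) with shRNA 1 and shRNA 2, at adjusted p-values of 5.85e-12 and 4.01e-05. IRF1, an interferon regulatory factor that induces the immunoproteasome, had log2 fold changes of 0.14 ± 0.09 and 0.21 ± 0.09 (SE) with shRNA 1 and shRNA 2, at adjusted p-values of 0.262 and 0.0497. NLRC5, the activator of MHC class I genes, had log2 fold changes of 0.01 ± 0.19 and 0.14 ± 0.19 (SE) with shRNA 1 and shRNA 2, at adjusted p-values of 0.976 and 0.653. All values are from the authors' deposited tables.

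Factors that bind the proteasome or carry it into the nucleus had 3 higher and 6 lower of 23 with shRNA 1, and 2 higher and 13 lower of 23 with shRNA 2, with medians of 0.01 and -0.35, in the authors' deposited tables. UBE3C, a ubiquitin ligase on the particle, had log2 fold changes of -0.46 ± 0.08 and -0.43 ± 0.08 (SE) with shRNA 1 and shRNA 2, at adjusted p-values of 1.08e-07 and 5.02e-07. IPO9, an import factor of the proteasome, had log2 fold changes of -0.28 ± 0.09 and -0.39 ± 0.09 (SE) with shRNA 1 and shRNA 2, at adjusted p-values of 0.0182 and 0.000264. UBQLN1, a shuttle receptor, had log2 fold changes of -0.27 ± 0.09 and -0.48 ± 0.09 (SE) with shRNA 1 and shRNA 2, at adjusted p-values of 0.0218 and 3.49e-06. USP5, which takes apart free ubiquitin chains, had log2 fold changes of 0.41 ± 0.11 and -0.35 ± 0.11 (SE) with shRNA 1 and shRNA 2, at adjusted p-values of 0.00148 and 0.00703. The first 3 were lower with both hairpins, and USP5 had opposite signs. Of 19 genes of ubiquitin and its activation, 3 were higher and 1 lower with shRNA 1 (median 0.10), and 3 were higher and 6 lower with shRNA 2 (median -0.08). All values are from the authors' deposited tables.

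The p97 segregase extracts substrates for the proteasome. Of its genes, 2 were higher and 5 lower among 15 with shRNA 1 (median -0.11), and 1 was higher and 5 lower among 16 with shRNA 2 (median -0.09), in the authors' deposited tables. These counts, too, show nothing particular to the list beside the shares over all genes. VCP, p97 itself, had log2 fold changes of 0.11 ± 0.08 and -0.55 ± 0.08 (SE) with shRNA 1 and shRNA 2, at adjusted p-values of 0.370 and 1.89e-10. UFD1, its cofactor, had log2 fold changes of 0.31 ± 0.12 and -0.68 ± 0.12 (SE) with shRNA 1 and shRNA 2, at adjusted p-values of 0.0464 and 6.16e-07. NSFL1C, another cofactor, had log2 fold changes of -0.35 ± 0.10 and -0.39 ± 0.10 (SE) with shRNA 1 and shRNA 2, at adjusted p-values of 0.00334 and 0.000611. VCPIP1, a deubiquitinase bound to it, had log2 fold changes of -0.38 ± 0.11 and 0.37 ± 0.11 (SE) with shRNA 1 and shRNA 2, at adjusted p-values of 0.00455 and 0.00508. VCP and UFD1 had positive fitted changes with shRNA 1 and negative ones with shRNA 2, though VCP did not pass with shRNA 1. NSFL1C was lower with both hairpins and VCPIP1 had the reverse signs, so the named genes share no common pattern. A link of this list to the 20S genes was not tested. Of 11 MHC class I genes, 1 was higher and 3 lower with shRNA 1 (median -0.15), and 2 were higher and 3 lower with shRNA 2 (median -0.10). These few genes show nothing particular to the list beside the same shares. TAP1, a subunit of the peptide transporter encoded beside PSMB9, had log2 fold changes of -0.16 ± 0.10 and 0.08 ± 0.10 (SE) with shRNA 1 and shRNA 2, at adjusted p-values of 0.248 and 0.643. TAPBP, of the loading complex, had log2 fold changes of -0.26 ± 0.08 and -0.40 ± 0.08 (SE) with shRNA 1 and shRNA 2, at adjusted p-values of 0.00449 and 1.16e-06. HLA-E had log2 fold changes of -0.65 ± 0.08 and -0.38 ± 0.08 (SE) with shRNA 1 and shRNA 2, at adjusted p-values of 2.37e-15 and 9.24e-06. HLA-B had log2 fold changes of 0.22 ± 0.08 and -0.26 ± 0.08 (SE) with shRNA 1 and shRNA 2, at adjusted p-values of 0.0223 and 0.00519. Reads of HLA genes resemble each other, and their levels are uncertain. All values are from the authors' deposited tables.

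Of 10 genes that proteasome inhibitors are known to raise, 2 were higher and 1 lower with shRNA 1 (median -0.08), and 2 were higher and 2 lower with shRNA 2 (median -0.03), in the authors' deposited tables. HMOX1, haem oxygenase, had log2 fold changes of 0.98 ± 0.16 and 0.98 ± 0.16 (SE) with shRNA 1 and shRNA 2, at adjusted p-values of 3.74e-08 and 2.01e-08. SRXN1, sulfiredoxin, had log2 fold changes of 0.39 ± 0.12 and -0.44 ± 0.13 (SE) with shRNA 1 and shRNA 2, at adjusted p-values of 0.0109 and 0.00294. The chaperone HSPA1A had log2 fold changes of -1.18 ± 0.42 and -1.19 ± 0.42 (SE) with shRNA 1 and shRNA 2, at adjusted p-values of 0.0237 and 0.0184. HSPA1A has a low mean, 71.5 normalised counts, and a near-identical copy, HSPA1B, with a mean of 2354, so its level is uncertain. HSPA1B had log2 fold changes of -0.22 ± 0.12 and 0.002 ± 0.12 (SE) with shRNA 1 and shRNA 2, at adjusted p-values of 0.186 and 0.995. SQSTM1, the aggregate receptor p62, had log2 fold changes of -0.04 ± 0.08 and 0.25 ± 0.08 (SE) with shRNA 1 and shRNA 2, at adjusted p-values of 0.809 and 0.0117. HMOX1 was thus higher and HSPA1A lower in both hairpin arms, while the more abundant copy HSPA1B passed in neither comparison. For HMOX1 the log2 difference of shRNA 2 minus shRNA 1 had an SE of 0.228. Without the filter on low genes 0 genes of this list pass as lower with shRNA 1, so that call of HSPA1A is lost. All values are from the authors' deposited tables.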

How the data were processed

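RNA of MM.1S cells was sequenced from poly(A)-enriched libraries, 2 per arm, and groups follow the shRNA that the labels give. The submitters' processing notes name Salmon 0.12.0, DESeq2 1.24.0 and GRCh38 (hg38). Their settings and annotation, and whether strand was used, are not stated, and Salmon divides reads among similar transcripts by a model. The authors deposited 2 tables of comparisons. Per the file headers these hold a signal, the mean normalised read count over libraries, and log2 fold changes with SEs on the log2 scale. The Wald score deposited by the authors equals the log2 fold change over its SE to within 3.27e-07. Both kinds of p-value, raw and adjusted, were deposited by the authors, and adjusted p-values reach down to means of 26.8 with shRNA 1 and 11.8 with shRNA 2. Counts of single libraries are not used here, so depth is unknown and no count test was run.

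All 33095 genes have equal means in both tables, so 1 fit held the 6 libraries. Fold changes are shRNA over scramble. Dispersions solved from both tables for 1534 genes differed by a median absolute log ratio of 0.00233 with the signs as coded and by at least 0.0275 with a sign turned. The scramble mean was solved as 3 times the mean over the sum of 1 and both ratios. The hairpins were compared by a two-sided z test with Benjamini-Hochberg adjustment over genes with a mean of at least 10, which was tested on simulated data. Medians for recentring used genes with a mean of at least 50.

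All identifiers occur in GENCODE 29, the source of coordinates and transcript lengths, and promoters come from the RefSeq table. Python 3.11.15, pandas 2.3.3, numpy 2.4.6 and scipy 1.17.1 were used. The alternatives tried were other thresholds, a minimum fold change, no filter on low genes, recentring, another SE of the difference, another transcript for lengths and another counterpart of the immunoproteasome subunits. For promoters the alternative was a window of only the 250 bases before the start. The shares over genes in the same range of means were added after the data were seen. The proteasome genes, the 6 pathway lists and the rule for named genes were chosen with earlier results of these data known. That rule takes every proteasome gene, the genes nearest the threshold, 8 fixed pathway genes and up to 4 genes of each list that passed in both comparisons. HSPA1B is given besides, as the copy of HSPA1A. A gene that the rule names is not reported here.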

Additional observations from a re-analysis of the deposited data

Results flagged for a closer look

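For 28 proteasome genes the response to the 2 hairpins differed in the z test (two-sided, adjusted p below 0.05) computed from the deposited values. The values that follow are log2 fold changes with shRNA 2 minus those with shRNA 1. Among alpha subunits they were -0.61 for PSMA1, -0.72 for PSMA2, -0.56 for PSMA3, -0.63 for PSMA4, -0.47 for PSMA5 and -0.51 for PSMA7. Among beta subunits they were -0.59 for PSMB1, -0.81 for PSMB2, -0.68 for PSMB3, -0.69 for PSMB4, -0.71 for PSMB5 and -0.79 for PSMB6. Among ATPases the value was -0.67 for PSMC1, -0.76 for PSMC3 and -0.42 for PSMC5. Non-ATPase subunits had -0.54 for ADRM1, -0.62 for PSMD1, -0.50 for PSMD2, -0.45 for PSMD4, -0.39 for PSMD6, -0.60 for PSMD7, -0.50 for PSMD8, -0.72 for PSMD12 and -1.27 for PSMD14. The remaining genes were POMP at -0.79, PSME4 at -0.42, PSME1 at 0.73 and PSMD9 at 0.61. PSME1 and PSMD9 were thus the genes with the opposite sign, higher with shRNA 2. IRF3 itself differed between the hairpins by 1.35 ± 0.15 (SE) on the same scale, and its part in these differences was not tested.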

How the results depend on the processing

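The 14 higher and 5 lower genes with shRNA 1 and the 1 higher and 28 lower genes with shRNA 2 became 8, 4, 1 and 25 at an adjusted p below 0.01. With a log2 fold change of at least 0.5 in size they became 1 and 2 with shRNA 1, and 0 and 7 with shRNA 2, since few changes of these genes are that large. Without the filter on low genes, with a mean of at least 50 and after recentring, all 4 counts stayed within 1.5 times their value. Of the genes higher with shRNA 2 than with shRNA 1, 1 of 2 was left at an adjusted p below 0.01, and with the shared scramble variance removed 33 were lower in place of 26. Recentred, PSMC6 with shRNA 1 turned to 0.0053, a change within its SE.

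Set against the median of the 20S subunits in place of the counterpart, PSMB8 was at -0.55 with shRNA 1 and 0.28 with shRNA 2, PSMB10 at -0.31 with shRNA 1 and PSMB9 at 0.51 with shRNA 2, so these contrasts depend on the partner chosen. The median scramble level per kilobase was 1374, and 794 with the longest annotated transcript. Among pathway lists, dropping the filter left 1 higher p97 gene, 0 higher MHC class I genes and 0 lower stress genes with shRNA 1, and 1 higher regulator and 1 higher bound factor with shRNA 2. Recentring gave 5 higher regulators and 2 higher MHC class I genes with shRNA 1 and 2 higher p97 genes with shRNA 2. The cause was not tested.

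No paired analysis was possible because the tables hold no value of a single library. For the same reason leaving out each replicate was not run.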
